A study of Mus musculus with 10 samples.

Results

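The 10 genes described here encode the signalling cascade by which ON bipolar cells of the retina answer glutamate. They were taken by gene symbol from a table of 54532 genes, and every one of the 10 symbols was found exactly once. RNA was sequenced from 10 neural retinas of BALB/c mice, an albino strain that is sensitive to light, at 2 months of age. All mice were kept in the dark for 12 h and then spent 1 day in non-reflective cages, at 200 lux for the 5 normal light retinas (NL-1, NL-4, NL-5, NL-7 and NL-8) or at 15000 lux for the 5 light damage retinas (LD-1, LD-4, LD-6, LD-7 and LD-8). No mutation or drug was part of either group, and the labels do not say whether any pair of retinas came from the same mouse, so p-values measure the spread between these samples.

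Rods and cones release glutamate in the dark. On the dendrites of ON bipolar cells the glutamate receptor mGluR6 passes the signal to the G protein Go, which keeps the cation channel TRPM1 shut, and the channel opens when light lowers the release of glutamate. A set of leucine-rich and scaffold proteins holds receptor, channel and G protein regulators together at the dendritic tips, and loss of any core component removes the b-wave of the electroretinogram and causes congenital stationary night blindness. Mammalian rod bipolar cells, which carry the signal of rods, are all of the ON type.

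The receptor gene *Grm6*, the channel gene *Trpm1* and *Lrit3*, a gene for a leucine-rich repeat protein needed for TRPM1 at the dendrites, carry most of what follows, and their promoters are shown for the letters GATTA, the core of sites for the photoreceptor and bipolar factors OTX2 and CRX. The 250 bases before each transcription start are written 5′ to 3′ on the strand of the gene, as given by RefSeq on GRCm38.p6, with GATTA or its reverse complement TAATC in capitals. The *Grm6* promoter lies at chr11:50850435-50850684 on the plus strand, that of *Trpm1* at chr7:64153585-64153834 on the plus strand, and that of *Lrit3* at chr3:129804137-129804386 on the minus strand.
Grm6: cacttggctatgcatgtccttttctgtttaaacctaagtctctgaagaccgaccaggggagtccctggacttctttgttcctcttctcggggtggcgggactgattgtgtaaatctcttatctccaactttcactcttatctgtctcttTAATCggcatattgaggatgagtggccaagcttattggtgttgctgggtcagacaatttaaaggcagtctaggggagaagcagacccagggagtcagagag
Trpm1: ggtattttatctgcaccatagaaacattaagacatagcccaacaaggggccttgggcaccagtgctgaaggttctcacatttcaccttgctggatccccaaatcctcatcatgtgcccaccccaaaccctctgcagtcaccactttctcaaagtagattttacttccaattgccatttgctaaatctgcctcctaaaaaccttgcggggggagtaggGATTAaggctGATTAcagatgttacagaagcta
Lrit3: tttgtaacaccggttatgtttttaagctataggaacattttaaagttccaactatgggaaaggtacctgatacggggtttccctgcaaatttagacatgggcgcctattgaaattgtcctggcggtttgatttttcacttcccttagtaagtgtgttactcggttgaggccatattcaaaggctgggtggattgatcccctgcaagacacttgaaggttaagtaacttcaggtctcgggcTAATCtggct
The *Trpm1* stretch held GATTA 33 and 23 bases before the start, the *Grm6* stretch held TAATC 101 bases before it, and the *Lrit3* stretch held TAATC 10 bases before it. These were the 3 promoters with a match among the 9 members that have a promoter record, *Rgs11* having none. Over all 32851 promoters of the same length, 19.8% held either string, so a match describes the letters only. The longer string GGATTA or its reverse complement stood in *Trpm1* alone among the 9, against 6.25% of all promoters.

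Values are FPKM, the reads of a gene divided by its length and by the size of the library, and they rest on 21343389 to 26832535 reads on genes in an NL retina and 18965090 to 23378090 in an LD retina. FPKM values are per length, so levels may be set side by side between genes. NL-5 and NL-7, LD-1 and LD-7, and LD-4 and LD-6 were much closer to each other than the other retinas of their group. The chi-square of their reads was 2.65 to 3.65 per gene, above the 1 that counting noise alone gives, against 12.2 to 43.4 for the other 17 pairs within a group. They were kept as separate samples, and values with these pairs averaged are given where they matter. The factor by which the authors scaled each library was 0.951 to 0.968 in NL and 1.04 to 1.07 in LD, and without it the median log2 difference of all genes moved from -0.01 to 0.11. Bipolar cell markers were present in every retina. 4 genes listed as bipolar cell markers, *Otx2*, *Cabp5*, *Scgn* and *Isl1*, summed to 183 to 213 FPKM in NL and 147 to 173 FPKM in LD. *Otx2* was the one that fell at an adjusted p under 0.05, by 0.66 on the log2 scale (limma adjusted p of 5.34e-06). Photoreceptors and pigment epithelium express *Otx2* as well, so this sum does not measure bipolar cells alone. *Cabp5*, a calcium-binding protein of bipolar cells, was at 49.6 to 81.2 FPKM in NL and 44.1 to 61.4 FPKM in LD, and *Isl1*, a homeobox gene of ON bipolar cells and some inner retinal neurons, was at 23.9 to 31.6 FPKM in NL and 25.3 to 29.8 FPKM in LD. In whole retina, fewer cells of a type and less RNA per cell cannot be told apart.

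Of the 10 members, 1 was changed after light exposure and 9 were not called. The only called gene was *Lrit3*, which was 2.30-fold lower in LD than in NL. A gene is called when the adjusted p of limma, with Benjamini-Hochberg adjustment over all 24508 genes tested, is under 0.01 and the fold change is above 2, and 2.37% of all genes tested were called lower. At an adjusted p under 0.05 with no minimum fold, *Lrit3* was again the only member called, against 27.8% of all genes tested. At an unadjusted limma p under 0.05 *Grm6* passed beside it, a threshold that at least the same 27.8% of all genes pass. For the 9 other members the 95% interval of the difference lay within a 2-fold change in either direction, and the share of all genes with such an interval was not counted. The median log2 fold change of the 10 members was -0.07, with -0.01 for all genes, and 9 of the 10 members were within 0.5 of 0 on the log2 scale, as were 72.7% of all genes. Fold changes are differences of mean log2(FPKM + 0.1), LD minus NL, and the added 0.1 draws them slightly towards 0. Being based on means of logs, they need not equal the ratio of the mean FPKM values.

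**Figure D1:**
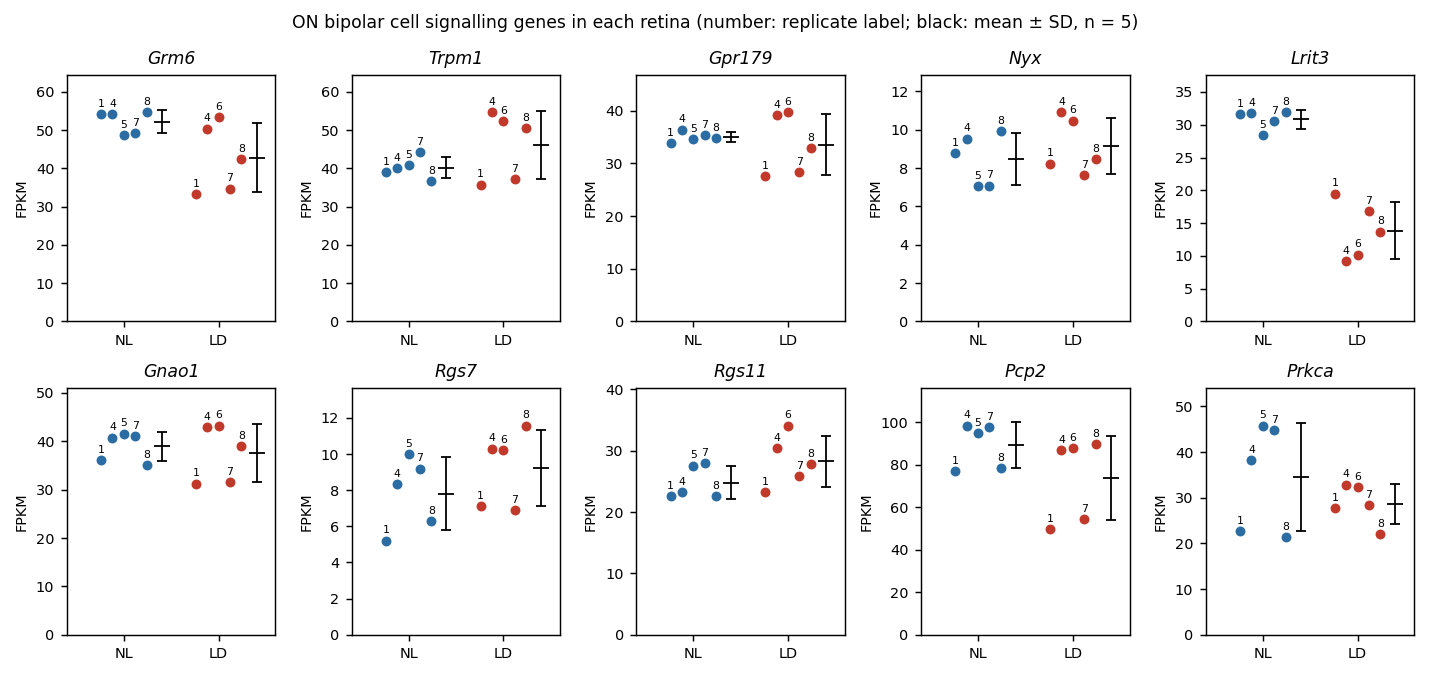
FPKM (vertical axes, from 0) of the 10 members in each retina, NL in blue and LD in red, with the replicate number beside each point and the mean ± SD (n = 5) in black. The *Lrit3* points of LD lie between 9.16 and 19.5 and those of NL between 28.4 and 31.9, whereas the groups overlap in every other panel.

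The receptor came at the head of the cascade. *Grm6*, at chr11:50850685-50866208 on the plus strand of GRCm38, was measured at 54.3, 54.3, 48.8, 49.2 and 54.7 FPKM in NL-1, NL-4, NL-5, NL-7 and NL-8. Its FPKM was 33.2, 50.4, 53.3, 34.7 and 42.4 in LD-1, LD-4, LD-6, LD-7 and LD-8. LD-1, LD-7 and LD-8 lay below every NL retina, whereas LD-4 and LD-6 lay within the NL range. The means were 52.2 ± 2.99 and 42.8 ± 9.03 (SD, n = 5), a log2 difference of -0.31 (SE 0.13, interval -0.59 to -0.03) with an adjusted p of 0.0982 in limma and 0.0873 in the exact two-sided permutation test. Leaving out 1 retina gave log2 differences of -0.40 (without LD-6, limma adjusted p of 0.0330) to -0.23 (without LD-1, 0.184), and only the fit without LD-6 passed 0.05. With *Xist* as covariate and all retinas kept, the limma adjusted p was 0.0342. It was 0.132 with the close pairs averaged and 0.068 by voom on the recovered reads. Without the authors' factor per retina the log2 difference was -0.18 (limma adjusted p of 0.353), or -0.29 relative to the median of all genes. Of the 13 alternatives that did not leave out single retinas in turn, 3 passed 0.05.

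The channel that the receptor controls differed in the other direction, within its spread. *Trpm1*, at chr7:64153835-64269775 on the plus strand, was at 39.0, 40.1, 40.9, 44.3 and 36.6 FPKM in the NL retinas, in the order used above. The LD retinas had 35.7, 54.7, 52.3, 37.1 and 50.5 FPKM. LD-4, LD-6 and LD-8 were above every NL retina and LD-1 was below all of them. The log2 difference was 0.18 (SE 0.12, interval -0.10 to 0.45), with a limma adjusted p of 0.333 and a mean of 40.2 ± 2.82 in NL and 46.1 ± 8.94 in LD (n = 5).

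*Gpr179* encodes the orphan receptor that anchors RGS proteins beside mGluR6. Its FPKM was 33.8, 36.4, 34.6, 35.4 and 34.8 in NL, the narrowest spread of the 10 members (a coefficient of variation of 2.76%), and 27.6, 39.2, 39.7, 28.4 and 32.9 in LD (17.2%). LD-4 and LD-6 stood above the NL range and LD-1, LD-7 and LD-8 below it, and the log2 difference was -0.08 (interval -0.30 to 0.15, limma adjusted p of 0.626).

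*Nyx* encodes nyctalopin, a leucine-rich repeat protein that holds TRPM1 in the dendritic membrane, and it is the one member on the X chromosome. The gene was at 8.77, 9.54, 7.06, 7.09 and 9.94 FPKM in NL and at 8.23, 10.9, 10.5, 7.62 and 8.47 FPKM in LD. Both groups spanned nearly the same range, with the close pair NL-5 and NL-7 lowest. The log2 difference was 0.11 (interval -0.18 to 0.40, limma adjusted p of 0.593).

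*Lrit3*, at chr3:129787881-129804030 on the minus strand, stood apart from the other members of the receptor complex. Transcripts of this gene are known from photoreceptors, and its protein acts at the same dendritic tips as nyctalopin. Which cells gave the *Lrit3* reads in these whole retinas was not tested. NL retinas had 31.6, 31.7, 28.4, 30.5 and 31.9 FPKM, resting on 1579 to 2255 reads each. LD retinas had 19.5, 9.16, 10.2, 16.8 and 13.7 FPKM, from 509 to 1302 reads. The highest LD retina, LD-1, was far below the lowest NL retina, NL-5, and the groups did not overlap, as was the case for 22.4% of all genes tested. From 30.8 ± 1.46 in NL the mean was 13.9 ± 4.36 in LD (SD, n = 5). The log2 fold change was -1.20 (SE 0.18, interval -1.61 to -0.80), with a limma adjusted p of 7.24e-04 and an exact permutation p of 0.00794, the smallest that 5 against 5 retinas can give. With the close pairs averaged the log2 fold change was -1.21 and the limma adjusted p was 0.00427, and leaving out any 1 retina kept it between -1.34 and -1.07.

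The order of the LD retinas in *Lrit3* differed from that in most other members. LD-1 and LD-7 were the 2 lowest LD retinas in 8 of the 10 members, that is in all but *Lrit3* and *Prkca*, and they were the 2 highest in *Lrit3*. The share of all genes with either order was not counted. With group means removed, the first principal component of all genes tested held 18.9% of the variance. On it LD-1 and LD-7 (0.50 and 0.45) lay opposite LD-4 and LD-6 (-0.55 and -0.41), so these retinas differed across all genes, not only in the members. LD-4 and LD-6, which had the most *Grm6* and *Gpr179* RNA of the LD retinas, had the least *Lrit3*. Rod markers also differed between these retinas: the summed FPKM of *Gnat1*, *Pde6b*, *Sag*, *Nrl* and *Nr2e3* was 1273, 619, 666, 1037 and 1348 in LD-1, LD-4, LD-6, LD-7 and LD-8, against 4182 to 4874 in NL, and all 5 fell. Cone markers had the same LD-4 and LD-6 minimum, with sums of 148, 35.5, 42.7, 115 and 128 FPKM in LD against 288 to 449 in NL, and all 5 fell at an adjusted p under 0.05. Summed markers of microglia and macrophages were 98.6, 57.7, 58.8, 83.8 and 39.0 FPKM in LD and 17.2 to 31.0 FPKM in NL. Of these 5 markers, 4 rose at a limma adjusted p under 0.05, a threshold that 27.8% of all genes tested passed. *P2ry12* had a log2 difference of -0.74 (limma adjusted p of 0.122). The part of these cells in the levels of the members was not tested.

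**Figure D2:**
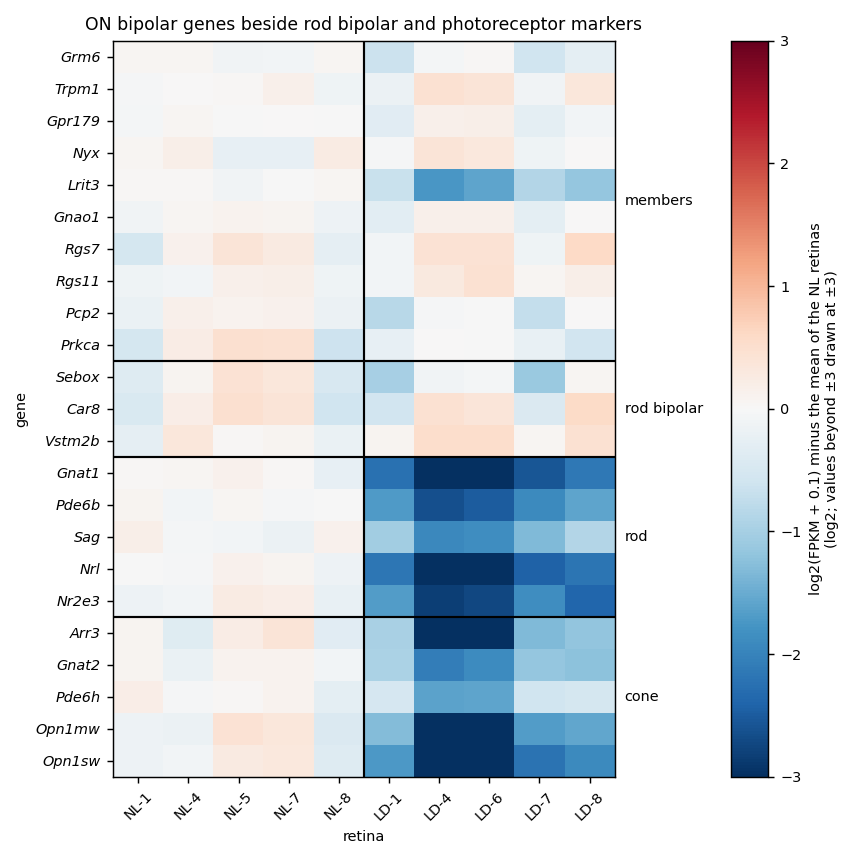
Difference of log2(FPKM + 0.1) from the mean of the NL retinas (colour, log2 scale, drawn at most to 3 in either direction) for the members, rod bipolar markers that are no members, and rod and cone markers (rows) in the 10 retinas (columns). *Lrit3* has the darkest blue of the member rows, in LD-4 and LD-6, the columns in which the rod and cone markers are darkest too.

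Behind the receptor stands the G protein. *Gnao1* encodes the alpha subunit of Go, which is abundant in ON bipolar cells and present in other retinal neurons. NL retinas gave 36.0, 40.8, 41.6, 41.1 and 35.1 FPKM and LD retinas 31.3, 43.0, 43.3, 31.5 and 39.1 FPKM. The groups shared most of their range (log2 difference -0.06, interval -0.29 to 0.17, limma adjusted p of 0.720), and the sign turned in a fit without the authors' factor per retina (0.0724), in TPM (0.043) and without LD-1 (0.0019).

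*Rgs7* and *Rgs11* encode the GTPase-activating proteins that switch Go off and set the speed of the ON response. *Rgs7* was the least expressed member in NL, at 5.21, 8.35, 9.99, 9.20 and 6.30 FPKM, and reached 7.13, 10.3, 10.2, 6.89 and 11.6 FPKM in LD. Its log2 difference was 0.25 with a wide interval of -0.20 to 0.70 (limma adjusted p of 0.418), with NL-1 and NL-8 lowest in NL and LD-1 and LD-7 lowest in LD. *Rgs11* was at 22.6, 23.3, 27.6, 27.9 and 22.6 FPKM in NL and 23.3, 30.4, 34.1, 25.9 and 27.8 FPKM in LD, with LD-4 and LD-6 above every NL retina. Its log2 difference of 0.18 (interval -0.05 to 0.42) had a limma adjusted p of 0.235, or 0.0494 at a log2 difference of 0.32 when the authors' factor was left out, 0.21 above the median of all genes under that scaling.

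*Pcp2*, a modulator of Go that is used as a marker of rod bipolar cells, had the highest level of the 10 in both groups. Its FPKM was 77.0, 98.5, 94.7, 97.8 and 78.3 in NL, and 49.6, 86.7, 87.9, 54.3 and 89.7 in LD. LD-1 and LD-7 were below all other retinas, and the 3 remaining LD retinas lay within the NL range (log2 difference -0.31, interval -0.72 to 0.09, limma adjusted p of 0.235).

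*Prkca* encodes protein kinase C alpha, the classic antigen of rod bipolar cells, which some amacrine cells carry as well. It was at 22.7, 38.3, 45.8, 44.7 and 21.3 FPKM in NL, the widest NL spread of the members, with NL-1 and NL-8 near the bottom of the LD range. LD retinas were at 27.7, 32.9, 32.4, 28.3 and 22.0 FPKM. The log2 difference was -0.21 (interval -0.72 to 0.30, limma adjusted p of 0.552).

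NL-1 and NL-8 were the 2 lowest NL retinas in 6 of the 10 members (*Trpm1*, *Gnao1*, *Rgs7*, *Rgs11*, *Pcp2* and *Prkca*) and in the 3 rod bipolar markers listed that are no members (*Sebox*, *Car8* and *Vstm2b*). The summed FPKM of these 3 markers was 62.6 and 60.6 in NL-1 and NL-8 and 91.8 to 102 in NL-4, NL-5 and NL-7. For *Grm6*, *Gpr179*, *Nyx* and *Lrit3*, NL-1 and NL-8 were not the 2 lowest, although NL-1 had the least *Gpr179*. The share of all genes in which NL-1 and NL-8 were the 2 lowest was not counted. Markers of the pigment epithelium were summed to 85.4 and 134 FPKM in NL-1 and NL-8 and to 51.0 to 70.0 FPKM in NL-4, NL-5 and NL-7, and their part in these levels was not tested.

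The order of the levels was not the same in the groups. In NL it ran *Pcp2*, *Grm6*, *Trpm1*, *Gnao1*, *Gpr179*, *Prkca*, *Lrit3*, *Rgs11*, *Nyx*, *Rgs7*, from a mean of 89.3 FPKM to 7.81 FPKM. Neighbours with separate ranges were *Pcp2* and *Grm6*, *Grm6* and *Trpm1*, *Lrit3* and *Rgs11*, and *Rgs11* and *Nyx*, whereas the other 5 pairs of neighbours overlapped. In LD, *Trpm1* stood before *Grm6* in 4 of 5 retinas, and *Lrit3* went below *Rgs11* in 5 of 5. The last pair was the only one of the 9 neighbouring pairs with separate ranges in LD.

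Whether the other members moved with the receptor was examined by dividing each by *Grm6* in the same retina. *Trpm1* was at 0.719, 0.739, 0.839, 0.901 and 0.669 of the *Grm6* level in NL, and at 1.08, 1.08, 0.982, 1.07 and 1.19 in LD, so that the groups did not overlap. The log2 difference of this ratio was 0.49 (SE 0.11, interval 0.25 to 0.73), with a limma adjusted p of 0.00662 over all 24507 genes set against *Grm6*. *Rgs11* rose relative to *Grm6* by 0.50 (limma adjusted p of 0.0136), *Nyx* rose by 0.42 (0.0203) and *Lrit3* fell by 0.89 (adjusted p of 0.0428), so 4 of 9 members were called, against 23.9% of all genes. Of the genes called relative to *Grm6*, 5324 were higher and 533 lower. The median gene also stood 0.30 higher relative to *Grm6*, and beyond that median *Trpm1* was 0.19, *Rgs11* 0.20 and *Nyx* 0.12 higher. *Trpm1* and *Rgs11* were called in all 10 fits with 1 retina left out and in all 13 other alternatives, and they were the 2 called with close pairs averaged or without NL-7. The *Lrit3* call was lost in 8 of the 10 fits with 1 retina left out (all but those without LD-1 or LD-7) and in 5 of the 13 others, and the *Nyx* call in 2 of 10 and 2 of 13. Values relative to *Grm6* did not overlap between groups in 4 of 9 members, *Trpm1*, *Rgs11*, *Nyx* and *Gpr179*, and in 21.2% of all genes. *Gpr179* was the one of these that was not called (ratio 0.622 to 0.720 in NL and 0.744 to 0.830 in LD), with a log2 difference of 0.23 and a limma adjusted p of 0.0790. Set against the median gene, its difference was -0.07.

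*Lrit3* kept one ratio to *Grm6* in all NL retinas and no common one in LD. It was 0.582, 0.585, 0.582, 0.621 and 0.583 in NL, and 0.587, 0.182, 0.191, 0.484 and 0.324 in LD. LD-1 was thus inside the NL range and LD-4 and LD-6 were lowest.

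**Figure D3:**
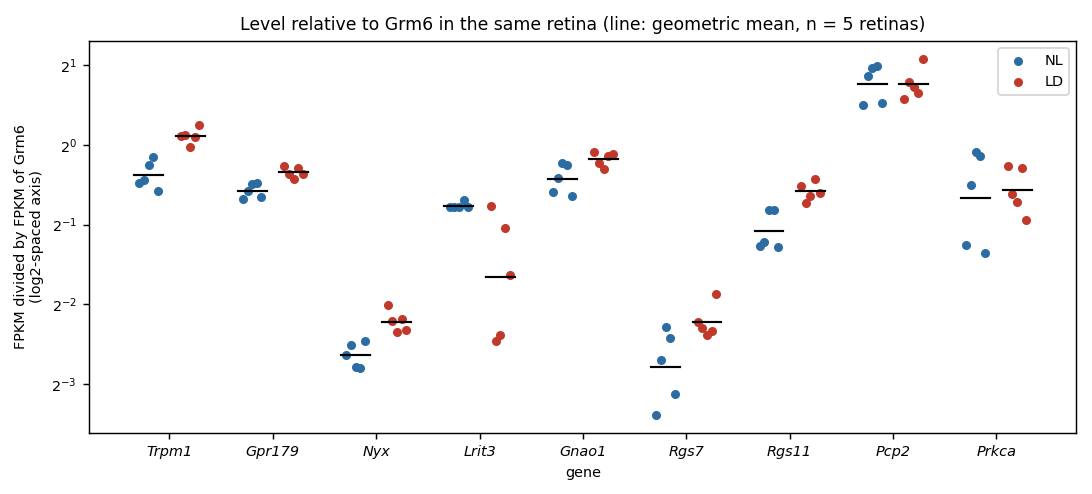
FPKM of 9 members divided by the FPKM of *Grm6* in the same retina (vertical axis with log2 spacing), NL in blue and LD in red, with the geometric mean of 5 retinas as a line. *Trpm1*, *Gpr179*, *Nyx* and *Rgs11* have separate groups with LD above NL, whereas the *Lrit3* ratio in LD runs from 0.182 to 0.587.

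A list of 10 more genes holds partners and relatives of cascade genes, and is called the other genes of the cascade here. A place in this list does not show that a gene acts in ON bipolar cells. By the 2-fold rule 1 was called higher and 2 lower, where 2.37% of all genes tested were called lower. At an adjusted p under 0.05 1 rose, 5 fell and 4 were not called. Over all genes tested, 27.8% passed that adjusted p in either direction. *Gnb3*, the G protein beta subunit of cones and ON bipolar cells, was at 344, 236, 214, 211 and 344 FPKM in NL and 885, 502, 546, 797 and 532 FPKM in LD, a log2 fold change of 1.27 (limma adjusted p of 0.00127). The lowest LD retina exceeded the highest NL retina, and LD-1 and LD-7 had the most. Its partner in ON bipolar cells, the gamma subunit gene *Gng13*, was at 62.3 to 86.0 FPKM in NL and 54.3 to 80.7 FPKM in LD (log2 difference -0.06, limma adjusted p of 0.766).

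Among the binding partners of the RGS proteins, *Gnb5* and *Rgs9bp* fell, whereas *Rgs7bp* was not called. *Gnb5*, the beta subunit on which RGS7, RGS9 and RGS11 depend for their stability, was at 181 to 196 FPKM in NL and 67.5 to 101 FPKM in LD (log2 fold change -1.15, limma adjusted p of 3.08e-05). *Rgs9bp*, which anchors RGS9 in photoreceptors and occurs with RGS11 in bipolar cells, was at 139 to 153 FPKM in NL and 26.2 to 48.2 FPKM in LD (log2 fold change -1.94). *Rgs7bp*, the anchor of RGS7, was not called (log2 difference -0.14, limma adjusted p of 0.0776). Of the relatives of *Lrit3*, *Lrit1* fell by 0.55 and *Lrit2* fell by 0.80 on the log2 scale, and *Ric8b*, a chaperone of G protein alpha subunits, fell by 0.90. *Gpr158*, the relative of *Gpr179*, had a log2 difference of 0.16 that did not pass.

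LD-1 and LD-7, the retinas with the least RNA of most members, were the 2 highest LD retinas in 4 of the 10 other genes of the cascade (*Gnb3*, *Gnb5*, *Lrit1* and *Lrit2*) and the 2 lowest in 4 (*Gng13*, *Rgs7bp*, *Gpr158* and *Cabp5*). *Gnb5* and *Rgs9bp* are abundant in photoreceptors, whose markers fell, and the share of each cell type in these levels was not tested.

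**Figure D4:**
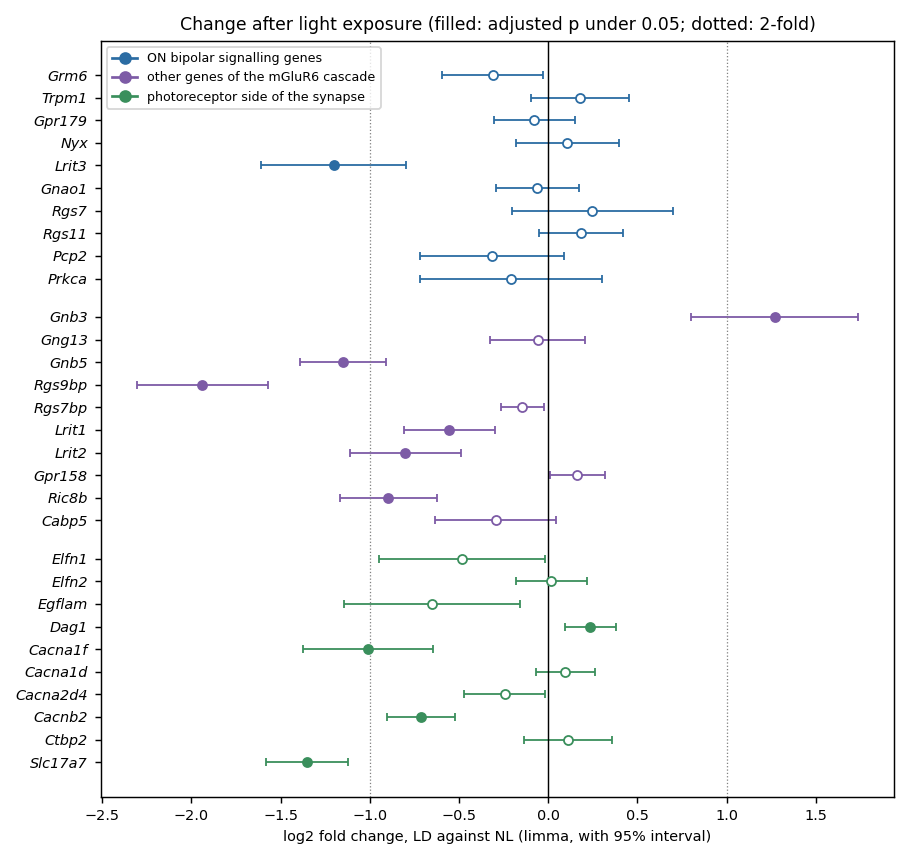
Log2 fold change, LD against NL (horizontal axis), with its 95% interval for the members, 10 other genes of the cascade and 10 genes of the photoreceptor side of the synapse, filled where the limma adjusted p is under 0.05. *Lrit3* at -1.20 is the one filled point among the members, and *Gnb3* at 1.27 and *Rgs9bp* at -1.94 are the outermost of the other genes of the cascade.

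On the photoreceptor side of the same synapse, 2 of 10 genes were called lower by the 2-fold rule, against 2.37% of all genes tested. At a limma adjusted p under 0.05, which 27.8% of all genes tested passed, 3 fell and 1 rose. Voom on the recovered reads called 5, these 4 and *Egflam*. *Slc17a7*, the glutamate loader of photoreceptor and bipolar cell vesicles, had a log2 fold change of -1.35, and *Cacna1f*, the calcium channel that drives release, one of -1.01. *Cacnb2*, an auxiliary subunit of that channel, fell by 0.71 on the log2 scale. *Elfn1*, which binds mGluR6 across the cleft, was at 28.4 to 31.4 FPKM in NL and at 28.3, 13.7, 15.2, 30.4 and 25.0 FPKM in LD, lowest in LD-4 and LD-6 as *Lrit3* was (log2 difference -0.48, limma adjusted p of 0.116). *Egflam*, the gene of pikachurin, had the same 2 retinas lowest, at 16.2 and 17.0 FPKM, with 24.8 to 36.4 FPKM in LD-1, LD-7 and LD-8 (limma adjusted p of 0.0511). *Dag1*, the gene of its receptor dystroglycan, rose by 0.24.

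Markers of bipolar cells were read from the same fit. The counts in these short lists stand beside the 27.8% of all genes tested that passed an adjusted p of 0.05. None of the 5 rod bipolar markers, *Pcp2* and *Prkca* included, was called in limma or by limma-voom on the recovered reads, with 1 at an unadjusted p under 0.05 (*Vstm2b*). Of the 11 bipolar fate factors, 2 rose (*Irx6* by 0.53 and *Neurod4* by 0.36) and 2 fell (*Otx2*, and *Vsx1* by 0.42) at an adjusted p under 0.05. *Otx2*, a homeobox factor of bipolar cells, photoreceptors and pigment epithelium, was at 63.2 to 69.0 FPKM in NL and 38.6 to 44.8 FPKM in LD, a log2 fold change of -0.66 (limma adjusted p of 5.34e-06). Among 7 OFF bipolar markers, *Grik1*, the kainate receptor subunit of OFF bipolar cells, rose by 0.65 and *Hcn4* rose by 0.35, whereas *Vsx1* is the gene that fell. Amacrine and ganglion cell lists, of 6 and 5 genes, had no gene called by either tool, with 1 and 0 genes at an unadjusted p under 0.05. *Glul*, the glutamine synthetase of Muller glia, was called lower by the 2-fold rule with a log2 fold change of -2.09, while the glutamate transporter gene *Slc1a3* rose by 0.50 (limma adjusted p of 0.0109) and the other 3 of 5 Muller glia markers were not called at an adjusted p under 0.05.

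**Figure D5:**
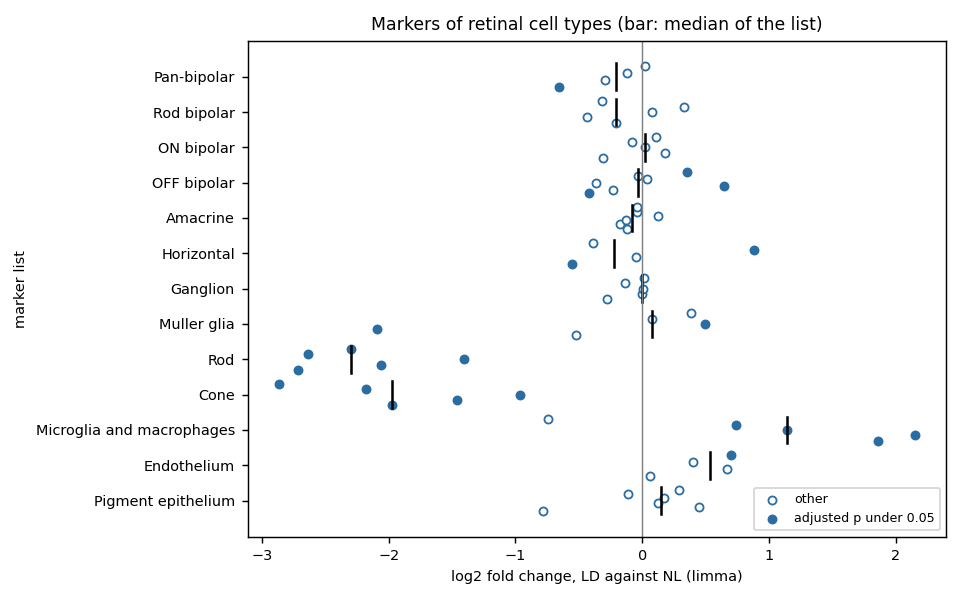
Log2 fold change, LD against NL (horizontal axis), of each tested marker of 13 retinal cell type lists (rows), filled where the limma adjusted p is under 0.05, with the median of each list as a bar. The ON bipolar and rod bipolar points lie between -0.44 and 0.33 and none is filled, while all rod and cone points are filled and lie to the left. The ON bipolar list holds the members *Grm6*, *Trpm1*, *Gpr179* and *Nyx* beside *Isl1*, without *Lrit3*. The rod bipolar list holds the members *Pcp2* and *Prkca*, so these 2 rows are not separate evidence from the members.

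The genes most like *Grm6* and *Trpm1* across the 10 retinas were looked up by the root mean square distance between centred log2 profiles, over 12427 protein-coding genes. Nearest to *Grm6* were *Aldh7a1* (distance 0.0828), *Tox3* (0.0942) and *Tmem215* (0.0971), and the nearest member was *Gpr179*, at rank 39. *Trpm1* was at rank 4654 from *Grm6*. Nearest to *Trpm1* were *Pam* (0.0452), *Gem* (0.0614) and *Ndufb6* (0.0666), with *Rgs11* as the nearest member at rank 121. For *Lrit3*, added after its values were seen, the nearest were *Klhl18* (0.0802), *Gucy2e*, a guanylate cyclase of photoreceptors (0.0832), and *Prdm1* (0.0837), with log2 fold changes of -1.20, -1.21 and -1.12. The nearest member to *Lrit3* was *Grm6*, at rank 5128. Since all genes share the libraries and their scaling, these distances are descriptions.

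Other genes overlap 7 of the 10 members, and reads of an overlapping pair cannot be told apart where strand is not used, as the setting of strand in the counting is not given in the sources used here. *Grm6* overlaps the antisense gene *Gm12660* (7.43 FPKM in NL and 6.11 in LD), *Rgs11* overlaps *Arhgdig* (2.36 and 3.42), *Pcp2* overlaps *Pet100* (4.01 and 5.04) and *Prkca* overlaps *Gm11655* (3.79 and 2.03), all on the opposite strand. *Trpm1* holds *Gm44719* on its own strand (21.6 FPKM in NL and 18.8 in LD), where strand would not tell the reads apart either. It also holds *Gm44722* on the opposite strand (4.61 and 5.29), besides the microRNA gene *Mir211*. *Gnao1* and *Rgs7* overlap genes at 1.49 FPKM or less. *Lrit3*, *Nyx* and *Gpr179* overlap no other gene of the table.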

How the data were processed

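Expression was measured by RNA-seq of 10 neural retinas, 5 NL and 5 LD, grouped and numbered by their labels. The authors deposited 1 table of FPKM for 54532 genes on GRCm38 positions. Bowtie2 2.0.6 and TopHat2 2.0.9 are named in the submitters' processing notes, and the program that counted reads is not given in the sources used here. In the deposited FPKM, 100% of the values were whole multiples (tolerance 0.01) of the worth of 1 read, which gave the reads per gene and depth. Reads cover counting error only.

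log2(FPKM + 0.1) was fitted with limma 3.58.1 (R 4.3.3), using its trend option and no block. Genes entered the fit if 5 or more retinas reached 0.1 FPKM (24508 genes), over which the Benjamini-Hochberg adjustment was made. Single members were also compared by exact permutation tests (scipy 1.17.1, numpy 2.4.6, pandas 2.3.3, Python 3.11.15). Figures were made in matplotlib 3.10.9. The fit was also run on simulated reads of independent retinas, with larger changes than any member had and no close pairs. That run cannot show how the fit handles small differences or close pairs. The members, gene lists and tests were chosen with earlier results of these data known. All 10 members are named, together with the listed genes that were called or needed and the 3 nearest genes by pattern. Tried as alternatives were another pseudocount (1 or 0.01), filter, scaling, trend, voom on recovered reads, *Xist* as covariate, averaged close pairs, the replicate number as a block, and each retina left out. Some genes, and a planned comparison with bipolar cell markers that needs one of them, are not reported here. Replicate numbers 1, 4, 7 and 8 occur in both groups. Promoter sequences are from RefSeq on GRCm38.p6 and 9 of 10 members matched by symbol.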

Additional observations from a re-analysis of the deposited data

How the results depend on the processing

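Of the 230 values of single members under 23 alternatives, 218 kept their direction and their side of the threshold. *Lrit3* stayed lower throughout, with a log2 fold change of -1.34 to -1.07 and limma adjusted p-values of 1.37e-04 to 0.0148. The highest of these came from the replicate block over the 8 retinas of shared numbers, under which 0 members passed the 2-fold rule in limma (2 at an unadjusted p under 0.05, *Grm6* and *Lrit3*, and 1 called by voom on all 10 retinas) and 808 of all genes did, against 1182 for the same 8 retinas with no block, 1595 in the fit reported and 816 with a pseudocount of 1. Deviations of same-numbered retinas from their group means had correlations of -0.09 to 0.07 for 4 pairs. Differently numbered retinas reached 0.11 (NL-7 and LD-8), so these correlations cannot show whether a shared number marks anything more. Leaving out 1 retina gave 1379 to 1603 genes, and voom on the recovered reads called 1695. At an adjusted p under 0.05, 2 members were called without the factor per retina (*Lrit3* and *Rgs11*), and 2 (*Lrit3* and *Grm6*) with the replicate block, with no replicate block over those 8 retinas, with *Xist* as covariate and without LD-6, leave-one-out fits giving 1 to 2. The replicate block changed no other call of a member in that comparison. Relative to *Grm6*, where 4 were called, 2 were called with close pairs averaged, 2 to 4 with 1 retina left out, 3 with the replicate block (4 with no replicate block over the same retinas), 5 with a pseudocount of 1, a filter of 1 FPKM or *Xist* as covariate, and 6 by voom, where *Rgs7* and *Gpr179* were added. Reversed values were close to 0: *Gpr179* at 0.0555 without the factor per retina and 0.0261 in TPM, *Nyx* at -0.0061 over the 8 retinas with and without the replicate block, and *Gnao1* at 0.0724 without the factor and 0.043 in TPM, or -0.1148 to 0.0019 with 1 retina left out (0.0019 without LD-1). The cause was not tested. The fewest reads of a member in any retina were 509, for *Lrit3* in LD-4.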
